A study of Homo sapiens with 6 samples.

Results

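The 7SK small nuclear RNA and the proteins that form its complexes with the elongation kinase P-TEFb were examined in leukaemia cells depleted of Aurora kinase B (AURKB). The set held 8 of the 50868 genes in the deposited expression table, picked by gene name: RN7SK, HEXIM1, HEXIM2, LARP7, MEPCE, CDK9, CCNT1 and CCNT2. The set was chosen because the read count of RN7SK was higher in the AURKB-depleted libraries, so the values of RN7SK are given as a description with no test. The other 7 genes were included for their place in the complex. All 8 passed the low-count filter that left 14818 genes for testing.

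7SK is an abundant non-coding RNA made by RNA polymerase III and found mainly in the nucleus. MEPCE caps and binds its 5′ end, and LARP7 binds its uridine-rich 3′ end and keeps it from degradation. HEXIM1 or HEXIM2, once bound to the RNA, holds P-TEFb, the kinase CDK9 with cyclin T1 (CCNT1) or cyclin T2 (CCNT2), in an inactive state. P-TEFb that has left the complex phosphorylates RNA polymerase II and the pausing factors DSIF and NELF, and paused polymerase then moves into the gene body.

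The cells were CUTLL1, an established line grown from a human T-cell acute lymphoblastic leukaemia. Cells of 1 arm carried a lentiviral short hairpin RNA against AURKB, a mitotic kinase (shAURKB, 3 libraries), and cells of the other arm carried a control hairpin, named shGFP in the sample titles (3 libraries). All 6 cultures were infected with lentivirus, selected with puromycin and harvested 48 h after infection, and total RNA was sequenced. The design text calls the 3 libraries of each arm biological replicates, and the number of hairpins used against AURKB is not stated.

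Library totals were 10446722 to 11641019 assigned reads in shAURKB and 10154187 to 11922979 reads in shGFP. AURKB itself had 454, 450 and 380 reads in shAURKB, against 1064, 999 and 1295 reads in shGFP. Its level was 39.9 ± 3.93 CPM (read counts scaled to a common library size) in shAURKB and 101 ± 5.10 CPM in shGFP (SD, n = 3 each). The log2 fold change of AURKB, given throughout as shAURKB over shGFP, was -1.35 ± 0.08 (SE), with an edgeR quasi-likelihood adjusted p of 2.54e-04. Scaled to library totals, the summed level of 10 T-lineage markers was 2348 to 2476 CPM in shAURKB and 2158 to 2287 CPM in shGFP, with LCK, CD3E and CD3D the highest of them. RAG1, a recombinase of immature lymphocytes in the same list, went the other way, at 15.2 ± 1.09 CPM in shAURKB and 53.0 ± 4.34 CPM in shGFP (SD, n = 3 each; log2 fold change -1.80, edgeR adjusted p = 1.55e-04). The 6 B-cell and myeloid markers summed to 16.0 to 19.8 CPM in shAURKB and 21.1 to 23.1 CPM in shGFP, nearly all of it CD79A, while MS4A1 and LYZ were at 0 in every library. The 10 fibroblast and epithelial markers summed to 0.648 to 1.29 CPM in shAURKB and to 0.985 and 1.17 CPM in shGFP replicates 2 and 3, but to 27.2 CPM in shGFP replicate 1, mostly from COL1A2. That library therefore stood apart. In RNA from whole cultures, a change in how many cells carry a transcript and a change in the amount per cell cannot be told apart.

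RN7SK (ENSG00000202198) lies on chromosome 6 at chr6:52995620-52995950 of GRCh38, on the plus strand. GENCODE release 29 gives it a single exon of 331 bases. The release also holds a second RN7SK entry at the same place and on the same strand (ENSG00000283293), which overlaps 328 of those bases and was not analysed here. The genome also carries many annotated copies of 7SK, of which the table lists 289. Because a copy that matches RN7SK base for base over a read's length can take its reads, the first 241 bases of RN7SK are shown with those of the copy whose reads went with it, RN7SKP203 (chr2:76445170-76445410, minus strand). Both are from GENCODE release 29, 5′ to 3′, and the capitals mark the bases that differ.
RN7SK: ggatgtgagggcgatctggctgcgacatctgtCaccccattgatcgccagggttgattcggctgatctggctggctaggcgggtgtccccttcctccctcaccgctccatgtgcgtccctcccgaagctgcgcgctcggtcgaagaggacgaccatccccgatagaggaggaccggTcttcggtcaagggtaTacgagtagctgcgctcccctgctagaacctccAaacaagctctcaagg
RN7SKP203: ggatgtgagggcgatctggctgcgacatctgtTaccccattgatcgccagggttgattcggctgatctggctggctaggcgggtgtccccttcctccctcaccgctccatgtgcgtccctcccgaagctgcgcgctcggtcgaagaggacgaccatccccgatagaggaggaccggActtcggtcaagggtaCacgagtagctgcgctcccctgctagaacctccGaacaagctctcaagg
Over these 241 bases 237 were identical, or 98.3%. The differences, counted from 1 at the 5′ end of RN7SK and given with the RN7SK base first and the base of the copy last, were C33T, T177A, T193C and A226G. Of the next 90 bases, 26 were identical. The stretch shown holds the 5′ hairpin that HEXIM proteins bind, and the 3′ end bound by LARP7 lies beyond it.

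RN7SK had 67, 55 and 67 reads in shAURKB, against 7, 7 and 6 reads in shGFP. Every shAURKB library lay far above every shGFP library, and the spread within each arm was small beside the gap between them. The scaled level of RN7SK was 5.87, 5.36 and 6.35 CPM in shAURKB and 0.661, 0.679 and 0.496 CPM in shGFP. The means were 5.86 ± 0.495 CPM in shAURKB and 0.612 ± 0.101 CPM in shGFP (SD, n = 3 each). The fitted log2 fold change of RN7SK was 3.25 ± 0.20 (SE), the 8th highest of the 14818 tested genes. The standard deviation of its log2 level within an arm was 0.159.

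The depth behind these values was low: 189 reads of RN7SK in shAURKB and 20 reads in shGFP, all libraries summed. Scaled to the library totals, the summed reads of shAURKB were 9.34 times those of shGFP (95% counting interval 5.88 to 15.6). Intervals of this kind cover counting error only, since reads that were amplified by PCR are not independent molecules. 7SK has no poly(A) tail, and whether the libraries selected for tailed RNAs is not stated. The 4 small nuclear RNA genes listed had only 4 reads in shAURKB and 6 in shGFP. How fully the libraries captured such RNAs was not tested, so the counts do not measure the amount of 7SK in the cells.

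**Figure D1:**
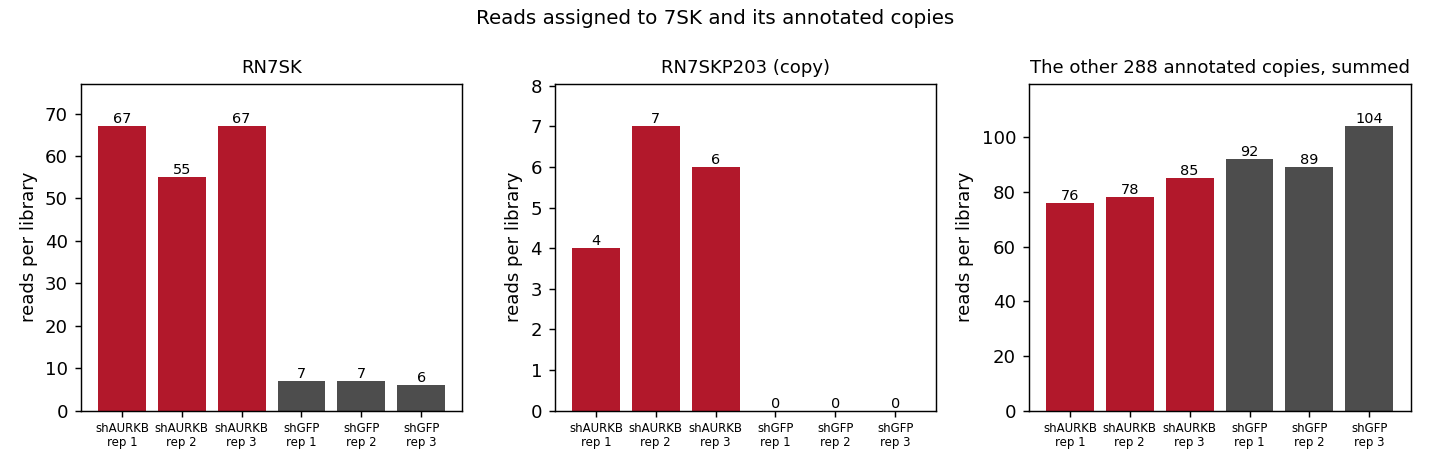
Reads per library (vertical axes, each starting at 0) assigned to RN7SK, to its copy RN7SKP203 and to the other 288 annotated copies summed, with the 3 shAURKB libraries left of the 3 shGFP libraries. RN7SK held 55 to 67 reads in shAURKB and 6 to 7 in shGFP, RN7SKP203 held 4 to 7 reads in shAURKB and 0 in shGFP, and the other copies held 76 to 85 reads in shAURKB and 89 to 104 in shGFP.

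RN7SKP203 (ENSG00000200488) was the copy that followed RN7SK. It had 4, 7 and 6 reads in shAURKB and 0 in each shGFP library. Set against a limit of 3 reads per library in shGFP, its level was at least 1.95-fold higher in shAURKB. It was too low to be tested, and it was singled out after its values were seen. Its 17 reads in shAURKB came to 8.99% of the reads of RN7SK in the same libraries. Other copies were about as close to RN7SK over 240 aligned bases without this pattern. RN7SKP255 (98.3% identical) and RN7SKP176 (97.9%) had 0 reads, and RN7SKP9 (97.9%) had 3 reads in shAURKB and 3 in shGFP.

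The other 288 copies did not share this pattern when summed. They had 76, 78 and 85 reads in shAURKB, against 92, 89 and 104 reads in shGFP, so that every shAURKB library lay below every shGFP library. The ratio of their summed reads, 239 in shAURKB and 285 in shGFP, was 0.829 after scaling to the library totals (95% counting interval 0.695 to 0.988). RN7SKP203 was left out of this sum after its values were seen. With all 289 copies the scaled ratio was 0.888 (interval 0.747 to 1.055), and this interval includes no change. A single copy, RN7SKP169, held 53 of the reads in shAURKB and 88 of those in shGFP. A lower level of the copies as a group is therefore not shown. Of the 289 copies, 238 had no read in any library.

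The 4 copies with the most reads were RN7SKP169, RN7SKP80, RN7SKP136 and RN7SKP23. RN7SKP169, on the minus strand of chromosome 22, lies inside MYO18B (plus strand) and Z98949.3 (minus strand). It had 14, 16 and 23 reads in shAURKB and 23, 33 and 32 reads in shGFP. Its log2 fold change was -0.69 ± 0.27 (SE, edgeR adjusted p = 0.109), and the arms touched at 23 reads. RN7SKP80, also on chromosome 22 and 96.3% identical to RN7SK over 269 aligned bases, had 11, 9 and 7 reads in shAURKB and 11, 8 and 12 reads in shGFP. Its log2 fold change was -0.16 ± 0.27 (SE, edgeR adjusted p = 0.781). RN7SKP136 had 15 reads in shAURKB and 11 in shGFP, and RN7SKP23 had 10 reads in shAURKB and 16 in shGFP, too few for a test. The other 3 were less like RN7SK than RN7SKP80. RN7SKP169 was 87.1% identical over 194 aligned bases, and RN7SKP136 was 74.0% identical over 231. RN7SKP23, an entry of 4301 bases, aligned over only 30 bases, so it counts as a copy by its name alone.

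How far the copies could exchange reads with RN7SK depends on the read length and on how reads with several matches were counted, neither of which is stated. Of the 282 windows of 50 bases in RN7SK, 94 (33.3%) also occurred exactly in RN7SKP203, and 216 (76.6%) occurred in a transcript of at least 1 of 14 annotated genes elsewhere, the overlapping second RN7SK entry left aside. With windows of 100 bases, 44 of 232 (19.0%) occurred in RN7SKP203 and 119 (51.3%) in 1 of 4 copies, RN7SKP203, RN7SKP255, RN7SKP71 and RN7SKP80. The level of RN7SK alone is therefore uncertain. Added together, RN7SK and all its copies had 147, 140 and 158 reads in shAURKB, against 99, 96 and 110 reads in shGFP. Every shAURKB library was above every shGFP library, and the scaled ratio of the summed reads was 1.44 (95% counting interval 1.24 to 1.67). This sum includes RN7SK, picked for its rise, so it is no separate check. It also takes in copies that share no window of 50 bases with RN7SK. Among these was RN7SKP169, with 53 reads in shAURKB and 88 in shGFP. The ratio of 1.44 is therefore no estimate for RN7SK itself. Without RN7SK, the 289 copies had 256 reads in shAURKB and 285 in shGFP.

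Other short non-coding RNAs of the same kind were few in the table. RN7SL1, the RNA of the signal recognition particle and likewise made by RNA polymerase III, had 20, 33 and 33 reads in shAURKB and 15, 9 and 11 reads in shGFP. The arms did not overlap, the log2 fold change was 1.33 ± 0.33 (SE), and the edgeR adjusted p was 0.0283. 7SL also has many near-identical copies, so the split of its reads is uncertain in the same way. RMRP, the RNA of the mitochondrial RNA-processing ribonuclease, had 3, 8 and 4 reads in shAURKB and 0, 1 and 6 reads in shGFP, and RPPH1, the RNA of ribonuclease P, had 6, 4 and 4 reads in shAURKB and 2, 2 and 5 reads in shGFP. Neither was tested, and the scaled ratios were 2.12 for RMRP (95% counting interval 0.813 to 6.14) and 1.54 for RPPH1 (0.620 to 4.03). The reads of RN7SL1, RMRP and RPPH1 were each summed over 2 entries of that name. The edgeR values of RN7SL1 are those of a single entry. RNU12 had 4 reads in shAURKB and none in shGFP, and BCYRN1 had none. Most other polymerase III transcripts and spliceosomal RNAs were not analysed here.

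Whole classes of short genes were compared after their values had been seen. The 892 genes of the class miscellaneous RNA other than 7SK and its copies had 1090 reads in shAURKB and 1074 in shGFP (scaled ratio 1.00, 95% counting interval 0.921 to 1.09). The 76 small nucleolar RNA genes had 129, 123 and 122 reads in shAURKB and 79, 96 and 85 reads in shGFP, and their scaled ratio was 1.42 (interval 1.21 to 1.67). The 6 small Cajal body RNA genes had 22 reads in shAURKB and 22 in shGFP (scaled ratio 0.988, interval 0.522 to 1.87), and the 4 small nuclear RNA genes had 4 reads in shAURKB and 6 in shGFP. Among the 274 other tested genes that span at most 500 bases, 16 passed the test as higher and 11 as lower, with a median log2 fold change of 0.04. Of all 14818 tested genes, 1847 (12.5%) passed as higher and 1609 (10.9%) as lower.

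Compared per length, in deposited FPKM (fragments per kilobase of transcript, scaled to library depth), RN7SK took a different place among the 8 genes in each arm. In shAURKB the order of mean levels was HEXIM1 (26.5 FPKM), MEPCE (19.1), RN7SK (17.3), CDK9 (14.6), LARP7 (7.70), CCNT1 (6.96), CCNT2 (2.23) and HEXIM2 (0.724). In shGFP it was HEXIM1 (25.5 FPKM), MEPCE (17.1), CDK9 (15.4), LARP7 (7.09), CCNT1 (6.21), CCNT2 (2.11), RN7SK (1.88) and HEXIM2 (0.877). RN7SK, at 17.4, 15.9 and 18.8 FPKM in shAURKB and 2.03, 2.08 and 1.52 FPKM in shGFP, was thus rank 3 of 8 in shAURKB and rank 7 of 8 in shGFP. The protein genes kept the same order in both arms. Neighbours with overlapping ranges of mean ± SD in shAURKB were MEPCE and RN7SK (SD 1.10 and 1.42 FPKM), and LARP7 and CCNT1 (SD 0.719 and 0.128 FPKM). Those in shGFP were MEPCE and CDK9 (SD 1.22 and 1.04 FPKM), and CCNT2 and RN7SK (SD 0.246 and 0.310 FPKM). The FPKM of RN7SK rests on few reads in shGFP, and it measures a share of the sequenced RNA, not the amount of 7SK per cell. Because 7SK has no poly(A) tail and the library type is not stated, it may have been captured unlike the messenger RNAs. Its place among the 8 is therefore no measure of its level relative to theirs.

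**Figure D2:**
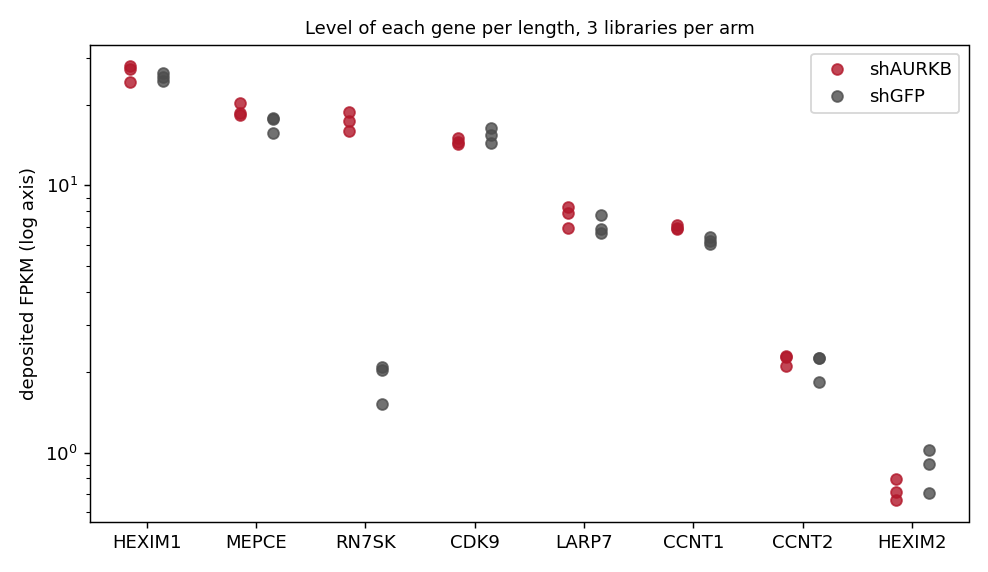
Deposited FPKM (vertical log axis) of the 8 genes in each library, shAURKB in red left of shGFP in grey, ordered by the shAURKB mean. RN7SK lay at 15.9 to 18.8 FPKM in shAURKB and at 1.52 to 2.08 FPKM in shGFP, whereas the arms of the 7 protein genes lay close together.

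Of the 7 protein genes, 1 passed the test at an adjusted p below 0.05, CCNT1, which was higher. That is 14.3% of them, against 23.3% of all 14818 tested genes (12.5% higher and 10.9% lower). The share of protein genes called was therefore no larger than the share among all genes. Their median log2 fold change was 0.13, and that of all tested genes was -0.00. The arms of CCNT1 and MEPCE did not overlap, and both genes were higher in every shAURKB library. The share of all tested genes without overlap was not counted, so whether this sets these genes apart is not known.

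HEXIM1 and HEXIM2, the inhibitory subunits, are neighbours on chromosome 17, separated by 8598 bases. HEXIM1 (ENSG00000186834, chr17:45148502-45152101, plus strand) had 1169, 1021 and 946 reads in shAURKB and 990, 934 and 1055 reads in shGFP, or 97.2 ± 6.65 CPM in shAURKB and 90.4 ± 3.14 CPM in shGFP (SD, n = 3 each). The arms overlapped: shAURKB replicate 3, at 89.7 CPM, lay within the shGFP range of 87.2 to 93.4 CPM. The fold change of HEXIM1 was 1.08 with a 95% interval of 0.968 to 1.19 (edgeR adjusted p = 0.281). HEXIM1 is a gene whose transcription is known to rise after small-molecule inhibition or disruption of P-TEFb complexes in human cells.

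HEXIM2 (ENSG00000168517, chr17:45160700-45170040, plus strand), the less abundant relative, had 44, 44 and 38 reads in shAURKB and 39, 55 and 57 reads in shGFP. Its level was 3.92 ± 0.348 CPM in shAURKB and 4.58 ± 0.837 CPM in shGFP (SD, n = 3 each), with overlapping arms. The fold change was 0.856, and its 95% interval of 0.633 to 1.16 was the widest among the 7 protein genes (edgeR adjusted p = 0.421). Exons on the opposite strand cover 520 of the 3600 exonic bases of HEXIM1 (AC138150.1) and 1026 of the 2038 of HEXIM2 (AC138150.2). Without a stated strand setting, reads from these overlaps cannot be told apart, and AC138150.1 had 144 reads in shAURKB and 159 in shGFP, and AC138150.2 had 96 reads in shAURKB and 103 in shGFP.

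LARP7 and MEPCE, which stay bound to 7SK, both had higher means in shAURKB without passing the test. LARP7 (ENSG00000174720, chr4:112636964-112657592, plus strand) had 699, 521 and 612 reads in shAURKB and 517, 567 and 571 reads in shGFP, or 56.7 ± 5.33 CPM in shAURKB and 50.3 ± 4.14 CPM in shGFP (SD, n = 3 each). Its arms overlapped, because shAURKB replicate 2, at 50.8 CPM, lay below shGFP replicate 2, at 55.0 CPM. The fold change of LARP7 was 1.13 with a 95% interval of 0.969 to 1.31 (edgeR adjusted p = 0.223). Exons of AC106864.1 and ZGRF1 on the opposite strand cover 302 and 32 of its 4083 exonic bases.

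MEPCE (ENSG00000146834, chr7:100428790-100434126, plus strand) had 1347, 1191 and 1367 reads in shAURKB and 1146, 988 and 1321 reads in shGFP. After scaling it stood at 118, 116 and 130 CPM in shAURKB and 108, 95.9 and 109 CPM in shGFP, so the arms did not overlap. The log2 fold change was 0.22 ± 0.07 (SE), with a 95% interval of 0.05 to 0.38. The edgeR p of MEPCE was 0.0184 before adjustment and 0.0681 after it, so it was not among the genes that passed. An opposite-strand gene, ZCWPW1, covers 203 of its 3420 exonic bases and had 113 reads in shAURKB and 142 in shGFP.

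**Figure D3:**
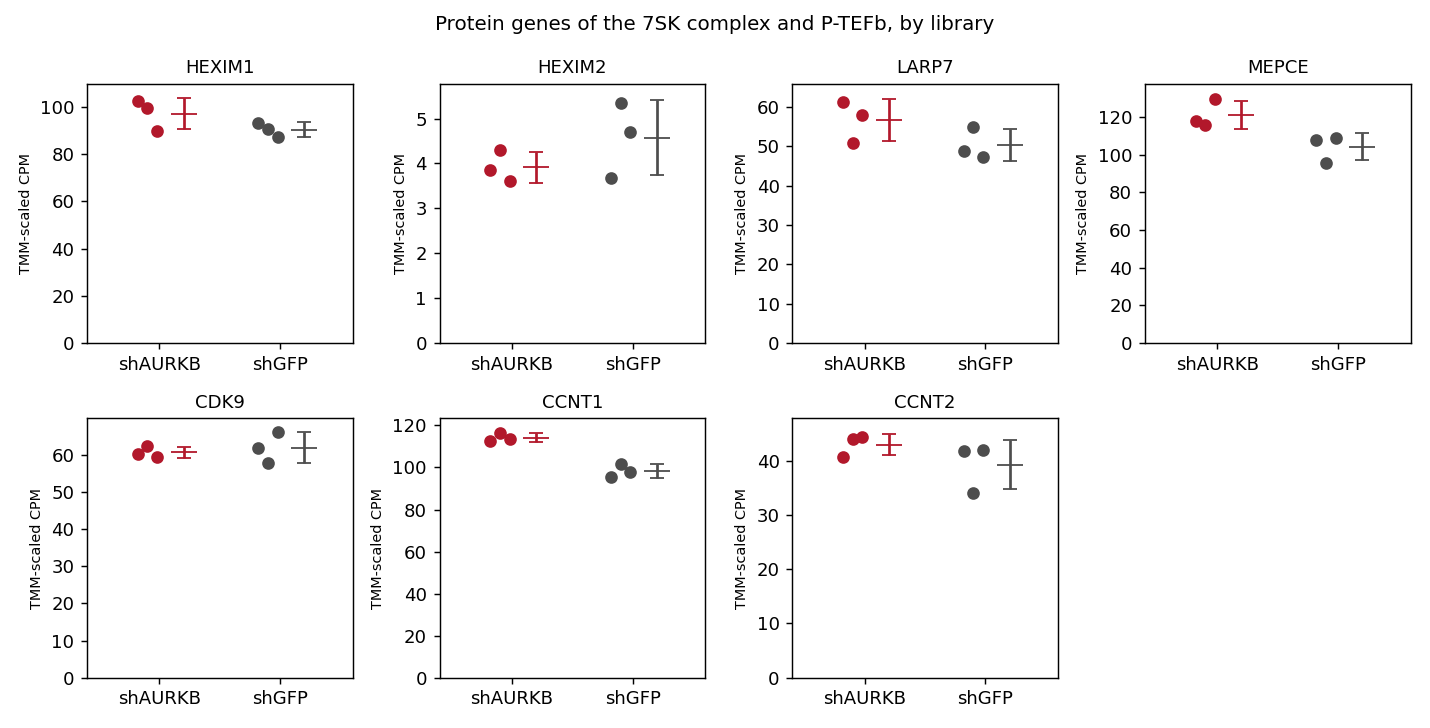
Level of each protein gene in CPM (vertical axes, each starting at 0) in the 3 shAURKB libraries (left) and the 3 shGFP libraries (right); horizontal bars are the mean and error bars the standard deviation. The arms were apart for MEPCE (116 to 130 CPM in shAURKB, 95.9 to 109 CPM in shGFP) and CCNT1 (113 to 116 CPM in shAURKB, 95.3 to 102 CPM in shGFP), and overlapped for the other 5.

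Within P-TEFb, the kinase and its cyclins differed in their values. CDK9 (ENSG00000136807, chr9:127785679-127790787, plus strand), the catalytic subunit, had 688, 640 and 626 reads in shAURKB and 656, 595 and 800 reads in shGFP, or 60.7 ± 1.57 CPM in shAURKB and 61.9 ± 4.18 CPM in shGFP (SD, n = 3 each). All shAURKB libraries lay within the shGFP range of 57.7 to 66.1 CPM. The fold change of CDK9 was 0.979 with a 95% interval of 0.881 to 1.09 (edgeR adjusted p = 0.777), and its log2 value, -0.03, changed sign to 0.02 without shGFP replicate 3.

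CCNT1 (ENSG00000129315, chr12:48688458-48716998, minus strand), which encodes cyclin T1, had 1286, 1194 and 1199 reads in shAURKB and 1010, 1048 and 1187 reads in shGFP. Its scaled level was 113, 116 and 114 CPM in shAURKB and 95.3, 102 and 98.1 CPM in shGFP, so the lowest shAURKB library was above the highest shGFP library. The means were 114 ± 1.97 CPM in shAURKB and 98.4 ± 3.21 CPM in shGFP (SD, n = 3 each). CCNT1 rose by a fold of 1.16, with a 95% interval of 1.08 to 1.25 and an edgeR adjusted p of 0.0176. The call was lost without shAURKB replicate 2 (adjusted p = 0.0565), without shGFP replicate 1 (0.0545) and without shGFP replicate 3 (0.0524), within a range of 0.0120 to 0.0565 over 12 alternatives.

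CCNT2 (ENSG00000082258, chr2:134918235-134959342, plus strand), which encodes the alternative cyclin T2, had 465, 451 and 468 reads in shAURKB and 443, 351 and 509 reads in shGFP. Its level was 43.0 ± 2.01 CPM in shAURKB and 39.3 ± 4.54 CPM in shGFP (SD, n = 3 each), with 2 of the 3 shGFP libraries above the lowest shAURKB library. The fold change was 1.09 with a 95% interval of 0.935 to 1.28 (edgeR adjusted p = 0.376). The antisense gene CCNT2-AS1, which covers 148 of its 9081 exonic bases, had 91 reads in shAURKB and 125 in shGFP. Whether the 2 cyclin genes differed in their response was tested only through the ratio given next.

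**Figure D4:**
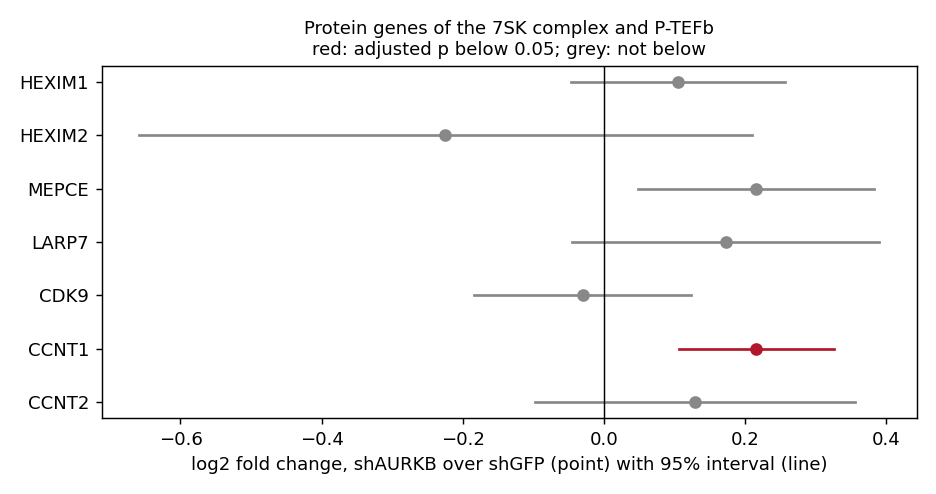
Log2 fold change, shAURKB over shGFP (horizontal axis), of each protein gene with its 95% interval; red marks an adjusted p below 0.05. CCNT1 (0.22) was the gene that passed; MEPCE (0.22) had an interval of 0.05 to 0.38 and an adjusted p of 0.0681.

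The balance between partners was compared by ratios of FPKM within each library, with 5 ratios tested by a two-sided exact permutation test, which with 3 libraries against 3 cannot give a p below 0.1. The ratio of cyclin T1 to cyclin T2 transcripts was 3.25, 3.11 and 3.01 in shAURKB and 2.68, 3.51 and 2.74 in shGFP, with overlapping arms (exact permutation p = 0.6, 0.75 after Benjamini-Hochberg adjustment over the 5). The summed cyclins relative to CDK9 were 0.620, 0.625 and 0.647 in shAURKB and 0.536, 0.574 and 0.514 in shGFP. This was the only one of the 5 ratios whose arms did not overlap (exact permutation p = 0.1, adjusted 0.5).

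HEXIM1 relative to CDK9 was 1.81 ± 0.107 in shAURKB and 1.66 ± 0.148 in shGFP (SD, n = 3 each; exact permutation p = 0.2, adjusted 0.5). HEXIM1 exceeded HEXIM2 by a factor of 39.1, 34.2 and 36.6 in shAURKB and of 37.4, 25.0 and 27.2 in shGFP (exact permutation p = 0.3, adjusted 0.5). LARP7 relative to MEPCE was 0.402 ± 0.0382 in shAURKB and 0.418 ± 0.0661 in shGFP (SD, n = 3 each; exact permutation p = 0.8, adjusted 0.8). None of these ratios passed, and none could have at this number of libraries. RN7SK relative to HEXIM1, given without a test, was 0.623, 0.586 and 0.770 in shAURKB and 0.0769, 0.0815 and 0.0619 in shGFP. This ratio sets an RNA without a poly(A) tail against a messenger RNA, so its size does not measure their balance in the cells.

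Around the 8 genes, 5 lists of related genes were counted. They held 14, 9, 15, 14 and 32 tested genes. Over all 5, 33 genes were higher and 2 lower at an edgeR adjusted p below 0.05. Of all 14818 tested genes, 12.5% were higher and 10.9% lower. Leaving out any 1 library gave 23 to 27 higher in the 5 lists. Without shGFP replicate 1, the library that stood apart, 24 were higher and 2 lower. Proteins that bind 7SK or release P-TEFb from it had 8 of 14 genes higher, 0 lower and 6 that did not pass (57.1% called, median log2 fold change 0.18, beside 23.3% and -0.00 for all tested genes). JMJD6, a demethylase known to act on 7SK, averaged 57.3 ± 2.01 CPM in shAURKB and 36.4 ± 2.14 CPM in shGFP (SD, n = 3 each; log2 fold change 0.66, edgeR adjusted p = 1.28e-03). DDX21, a helicase that releases P-TEFb from the 7SK complex, averaged 689 ± 18.9 CPM in shAURKB and 497 ± 9.06 CPM in shGFP (log2 fold change 0.47, adjusted p = 3.74e-04). Also higher were TRIM28, PPP1CA, DHX9, SSB, HNRNPR and PPM1G, with log2 fold changes of 0.14 to 0.32. PPM1G and PPP1CA are phosphatases tied to release of P-TEFb.

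The super elongation complex, which carries active P-TEFb, had 2 of 9 tested genes higher and 0 lower (22.2% called, median 0.01), and ELL2 was below the filter. The count lower was 1 without shAURKB replicate 2. MLLT1, a chromatin-reading subunit, averaged 183 ± 5.69 CPM in shAURKB and 135 ± 4.38 CPM in shGFP (log2 fold change 0.44, edgeR adjusted p = 1.30e-03). EAF1, a partner of the ELL factors, averaged 61.1 ± 1.87 CPM in shAURKB and 52.8 ± 1.94 CPM in shGFP (log2 fold change 0.21, adjusted p = 0.0362), but it lost the call under 10 of 12 alternatives (adjusted p 0.0354 to 0.110). AFF4, the scaffold of the complex, was at 140 ± 2.19 CPM in shAURKB and 140 ± 1.63 CPM in shGFP. The list therefore held 1 gene higher without any 1 of the 6 libraries.

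Factors that pause polymerase II or carry it through the gene, the substrates and partners of P-TEFb, had 8 of 15 genes higher and 1 lower (60.0% called, median 0.20). SUPT5H, the large subunit of DSIF, averaged 185 ± 5.90 CPM in shAURKB and 134 ± 4.73 CPM in shGFP (log2 fold change 0.47, edgeR adjusted p = 1.13e-03). NELFA, a subunit of the pausing factor NELF, averaged 60.5 ± 5.42 CPM in shAURKB and 42.3 ± 4.99 CPM in shGFP (log2 fold change 0.52, adjusted p = 0.0150), and it lost the call without shAURKB replicate 2 (0.0519) or shAURKB replicate 3 (0.0502). NELFB and NELFCD rose as well, by 0.24 and 0.32 on the log2 scale, while NELFE stood at 0.01 (adjusted p = 0.948). In the PAF1 complex, CTR9, LEO1 and PAF1 rose by 0.18 to 0.28 on the log2 scale, whereas CDC73 fell to 53.1 ± 2.52 CPM in shAURKB, against 66.3 ± 4.84 CPM in shGFP (log2 fold change -0.32, adjusted p = 0.0209). Without shAURKB replicate 2 the count of those higher was 5, and without shAURKB replicate 1, 2 or 3 or shGFP replicate 2 the count of those lower was 0.

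Other kinases and cyclins of the transcription cycle had 4 of 14 genes higher and 1 lower (35.7% called, median 0.08). The Mediator kinase CDK8 averaged 46.9 ± 2.85 CPM in shAURKB and 31.0 ± 0.904 CPM in shGFP (log2 fold change 0.60, edgeR adjusted p = 2.04e-03), while its paralogue CDK19 averaged 43.5 ± 0.587 CPM in shAURKB and 52.2 ± 0.865 CPM in shGFP (log2 fold change -0.26, adjusted p = 0.0130). The paralogues thus moved in opposite directions. CDK11B averaged 97.6 ± 2.45 CPM in shAURKB and 75.6 ± 6.94 CPM in shGFP (log2 fold change 0.37, adjusted p = 0.0131). The near-identical CDK11A stood at 0.08 on the same scale (adjusted p = 0.636), and the division of reads between these copies is uncertain. CDK12, the kinase that acts on elongating polymerase with cyclin K, averaged 181 ± 7.92 CPM in shAURKB and 149 ± 8.89 CPM in shGFP (log2 fold change 0.28, adjusted p = 0.0152).

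RNA polymerase III and its initiation factors, for RN7SK and for its other classes of promoter, had 11 of 32 genes higher and 0 lower (34.4% called, median 0.19). Of the 11 that rose, GTF3A, GTF3C1, GTF3C2, GTF3C4 and GTF3C6 encode TFIIIA or subunits of TFIIIC, which RN7SK does not need. SNAPC4, the large DNA-binding subunit of the complex that recognises the RN7SK type of promoter, averaged 35.4 ± 1.86 CPM in shAURKB and 24.8 ± 3.50 CPM in shGFP (log2 fold change 0.51, edgeR adjusted p = 0.0182). It lost the call without shAURKB replicate 2 (0.0567) or shGFP replicate 1 (0.0556). GTF3C6, the TFIIIC subunit with the largest change, averaged 73.4 ± 4.62 CPM in shAURKB and 53.1 ± 2.76 CPM in shGFP (log2 fold change 0.47, adjusted p = 4.74e-03). The log2 difference of BRF2, the TFIIIB subunit specific to RN7SK-type promoters, was 0.28 (adjusted p = 0.0842), and that of BRF1, its counterpart at the other polymerase III promoters, was -0.16 (adjusted p = 0.484). The count of 11 fell to 7 without shAURKB replicate 2, 5 without shAURKB replicate 3, 6 without shGFP replicate 1 and 7 without shGFP replicate 3.

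**Figure D5:**
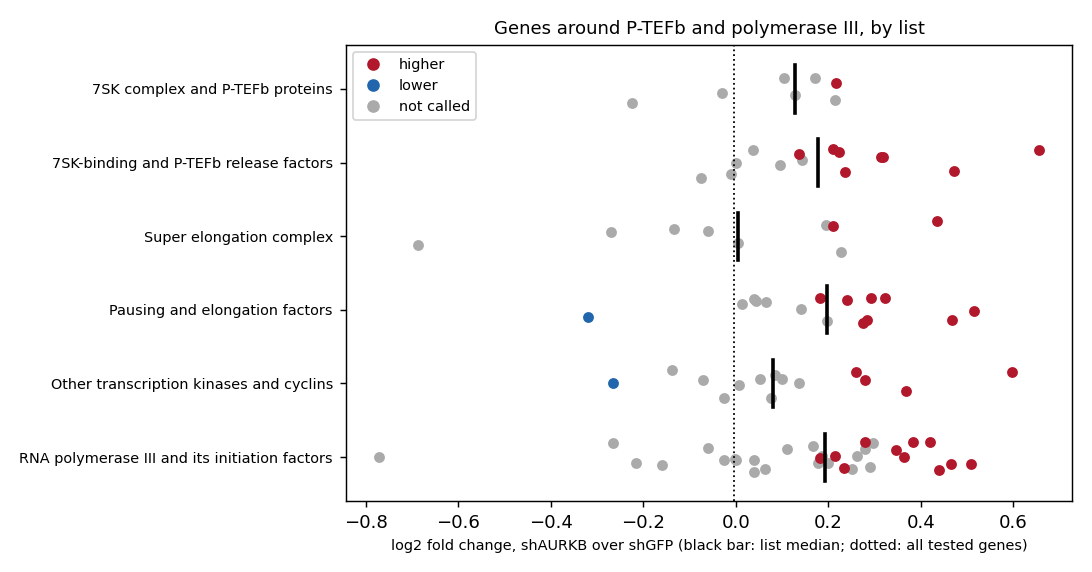
Log2 fold change, shAURKB over shGFP (horizontal axis), of each tested gene in the 7 protein genes (top row) and the 5 related lists; the black bar is the list median, the dotted line the median of all tested genes, and red and blue mark genes that passed as higher or lower. The 33 genes that passed as higher in the 5 lists lay between 0.14 and 0.66, and the 2 that passed as lower were CDC73 and CDK19.

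The share of higher against lower calls over all genes moved with the scaling. With the scaling used here 1847 genes were higher and 1609 lower, and with upper-quartile scaling 1325 were higher and 2087 lower. Under upper-quartile scaling CCNT1 kept its call (adjusted p = 0.0462) and the 5 lists held 26 genes higher and 3 lower.

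The genes whose levels over the 6 libraries were most like that of RN7SK were ARAF, PLAGL2, FTSJ3, LTA and SNHG17. Their log2 levels had a Pearson correlation with that of RN7SK of 0.998 to 0.999 over 6 libraries, which fall into the 2 arms, and 320 tested genes with an approved symbol reached 0.98. ARAF, a RAF-family kinase, averaged 78.8 ± 3.20 CPM in shAURKB and 43.8 ± 1.33 CPM in shGFP (SD, n = 3 each). The correlation therefore describes genes with a tight difference between the arms, and the log2 fold changes of the 5 ranged over 0.30 to 0.85, well below that of RN7SK.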

How the data were processed

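Total RNA from 6 CUTLL1 cultures was sequenced, and libraries were grouped by their titles into shAURKB and shGFP, 3 each. In 1 table the authors deposited, for each Ensembl gene, raw counts and FPKM. HISAT2 2.0.4, StringTie 1.3.0, edgeR and GRCh38 (hg38) are named, per the submitters' processing notes. Strand setting, read length, library type and treatment of multiply mapped reads are not stated, so reads of RN7SK, its copies and overlapping genes may be divided in ways the table does not show. No sample column was left unmatched (0).

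Counts were tested with edgeR 4.0.16 in R 4.3.3 (filterByExpr with a minimum count of 10 and a total of 15, TMM scaling with factors 0.9789 to 1.0204, quasi-likelihood fit of shAURKB against shGFP, Benjamini-Hochberg adjustment over 14818 genes, threshold 0.05), after the code had been checked on simulated data. CPM are TMM-scaled, except the marker sums, which are scaled to library totals. Counting intervals are exact 95% binomial intervals of summed reads. Deposited FPKM were used for the order of levels and for ratios. Sequences and exon overlaps came from GENCODE release 29, and alignments used Biopython 1.88. Alternatives were scaling by RLE or the upper quartile, DESeq2 1.42.0, other low-count filters, a replicate block, each library left out, and RN7SK summed with its copies.

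Named genes were all 8 members, AURKB, per related list the 2 called genes with the largest change (or the smallest p), up to 4 short RNAs and 7SK copies with the most reads, and the 5 genes most like RN7SK. Others, such as RN7SKP203, CDC73, CDK19, RAG1, AFF4, CDK12 and BRF2, were named after their values were seen. The members, lists and tests were chosen with earlier results of these data known.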

Additional observations from a re-analysis of the deposited data

How the results depend on the processing

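Of the 7 protein genes, 1 passed under every setting that kept all 6 libraries, the replicate block included, and 0 to 1 passed when 1 library was left out. The log2 fold change of CDK9 was -0.0758 to 0.0223 with 1 library left out, positive without shGFP replicate 3 alone. The other 6 kept their sign under all 12 alternatives, with MEPCE at an adjusted p of 0.0606 to 0.168. The log2 fold change of RN7SK was 3.11 to 3.33 under those alternatives and 3.25 with the replicate block, but 0.58 when RN7SK and its annotated copies were summed as 1 gene. That sum includes copies that share no window of 50 bases with RN7SK, such as RN7SKP169. The value of 0.58 is therefore no estimate for RN7SK alone. In the 5 related lists 33 genes were higher; the count was 23 to 27 with 1 library left out, 25 with the replicate block, 26 with upper-quartile scaling and 29 with DESeq2. The count lower was 2, against 1 with the replicate block (0 in the pausing and elongation list, so CDC73 lost its call), 3 with upper-quartile scaling and 1 to 2 with 1 library left out. Over all genes 1609 were lower, against 1062 with DESeq2, 1027 with the replicate block and 998 to 1056 with 1 library left out. The cause of these differences was not tested. The fits with 1 library left out also had fewer libraries. Libraries of the same number did not deviate together (correlations of their deviations -0.089, -0.031 and -0.037). With 3 libraries per arm, these values cannot show whether cultures of the same number were handled together. At 20 reads in shGFP, depth limits how closely the RN7SK difference can be sized, and the counting interval leaves out the uncertain split of reads with the copies.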
